A study of Mus musculus with 6 samples.

Results

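The genes described here are those of the Fanconi anaemia pathway and of homologous recombination, the repair systems that remove DNA interstrand crosslinks and mend double-strand breaks from an intact copy. A list of 38 such genes was taken, from the Fanconi core complex through the BRCA proteins to the checkpoint kinases, and a gene counted as measured where an array row carried its symbol alone. In all, 36 of the 38 were measured, among 19938 genes on the array. Xrcc2 and Rbbp8 were not analysed here. Of several rows for 1 gene the row with the highest mean was used, which concerned Bard1 and Nbn.

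The samples were bone marrow cells of 3 mice labelled p65 knockout and 3 labelled p65 wild-type, with 1 array per mouse. The protein p65, also called RelA, is an NF-κB transcription factor subunit, and the title of the series places its deletion in the hematopoietic compartment. The cells had been sorted as lineage-negative, Flk2-negative, c-kit-positive and Sca-1-positive, a fraction rich in blood stem cells. The labels give no Cre driver, age, sex or strain, nor a treatment of either group, and describe the replicates as separate mice.

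In the Fanconi pathway, stalled replication forks at a crosslink are recognised by FANCM, and the core complex, with the ubiquitin-conjugating enzyme UBE2T, attaches ubiquitin to the FANCD2-FANCI pair. Nucleases then cut around the lesion, and the break that results is resected by the MRE11 complex and EXO1 and repaired by recombination, in which BRCA1, BARD1, PALB2 and BRCA2 act together with several mediator proteins. ATM and ATR, with CHEK1 and CHEK2, signal the damage. Loss of Fanconi genes causes bone marrow failure in people, and blood stem cells of mice that lack them repopulate poorly.

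With all 6 arrays none of the 36 genes passed the threshold, a Benjamini-Hochberg adjusted p under 0.05 over all genes in limma, and 15 had an unadjusted p under 0.05, each with a higher mean in knockout cells. Over all genes 0.818% passed, 0.687% as higher in knockout (137 genes) and 0.13% as lower (26 genes), and 13.8% had an unadjusted p under 0.05 with a higher mean in knockout and 7.76% with a lower one. The split of 137 higher and 26 lower was 186 and 6 with arrays centred on their medians and 149 and 70 with cyclic loess. Without wild-type replicate 1, which stood apart from the other arrays, 3 members rose in knockout cells and 0 fell. They were Brca1, Bard1 and Fancd2, against a background of 4.66% of all genes called, 3.28% as higher and 1.38% as lower. Shares among genes of like signal are given below for the calls without wild-type replicate 1. They are not given for the unadjusted p, so the 15 genes are set beside all genes only. With the replicate number as a block only Bard1 rose (limma adjusted p = 0.0488), where 1.87% of all genes were called, 1.41% as higher and 0.451% as lower. With 1 array per mouse, the p-values rest on the spread between mice and between arrays together. In limma that spread is also moderated by the spread over all genes. In sorted bulk cells such as these, fewer cells of a kind and less RNA per cell cannot be told apart.

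Signal range differed between the arrays. The SD over all rows of the table was 2.26 to 2.29 in knockout arrays and 2.03 to 2.22 in wild-type arrays on the log2 scale, and the medians were 5.72 to 5.75 in knockout arrays and 5.81 to 5.98 in wild-type arrays. Wild-type replicate 1 had the smallest SD and the highest median, and limma gave it an array weight of 0.116. Across genes it correlated with the other arrays at r = 0.951 to 0.963, where the other 5 arrays correlated with each other at 0.982 to 0.995. Wild-type replicate 1 was the lowest of the 6 arrays in 32 of the 36 repair genes, the exceptions being Fanca, Bard1, Rad54l and Slx4. It was the lowest in 39.0% of all genes and in 84.2% of the brightest of 3 equal classes of genes by mean signal, where 23 of the 36 lie. In the middle class, which holds the other 13, it was the lowest in 29.7% of the genes. The exceptions named above all lie in the brightest class. Fold changes of the repair genes are therefore given with and without that array. Rela itself had values of 7.33, 7.48 and 7.35 in knockout cells, against 7.52, 7.89 and 7.92 in wild-type cells, with a difference of -0.39 on the log2 scale (limma adjusted p = 0.209, and 0.04 without wild-type replicate 1). Probes outside a deleted part can keep their signal, so this row is a weak check of the labels.

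**Figure D1:**
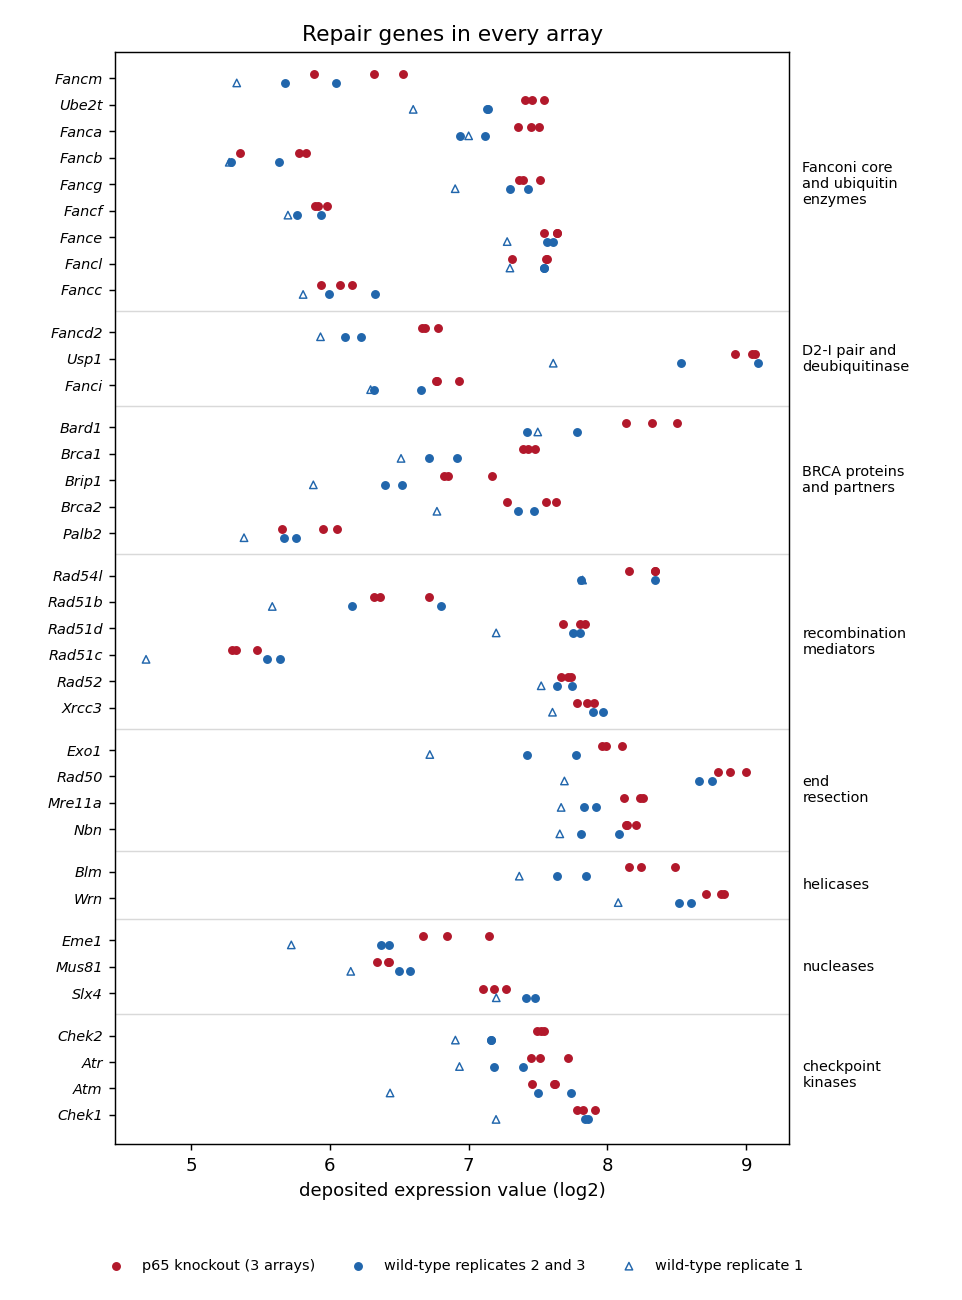
Deposited log2 expression values of the 36 measured repair genes in each array, grouped by role. Red points are the 3 knockout arrays, filled blue points wild-type replicates 2 and 3, and open triangles wild-type replicate 1, which was the lowest array in 32 of the genes. Levels of different genes come from different probes and are not comparable with each other.

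Brca1 and Bard1 encode the 2 subunits of the ubiquitin ligase that directs breaks towards recombination. Brca1 had log2 values of 7.48, 7.43 and 7.39 in knockout cells, against 6.51, 6.91 and 6.72 in wild-type cells. All knockout values lay above all wild-type values, and the knockout arrays spread little (mean 7.43 ± 0.04 in knockout and 6.71 ± 0.20 in wild-type, SD, n = 3 each). The log2 fold change was 0.72 (SE 0.15, limma adjusted p = 0.0713), or 1.65-fold. Brca1 rose by 0.62 (SE 0.11) when wild-type replicate 1 was left out (limma adjusted p = 0.031, within 0.0109 to 0.319 over 14 alternatives).

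Bard1 had 8.32, 8.14 and 8.50 in knockout cells, against 7.50, 7.42 and 7.78 in wild-type cells. Here the groups did not overlap either, and wild-type replicate 1 lay between the other wild-type arrays. The log2 fold change of 0.75 (SE 0.16, limma adjusted p = 0.0793) was 0.72 without that array, and Bard1 rose there (limma adjusted p = 0.0493, within 0.0264 to 0.348 over 14 alternatives). The other 2 rows of Bard1 had differences of 0.48 and 0.47 in the same direction, and in the first of them the groups overlapped.

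Brip1, the gene of the helicase FANCJ that binds BRCA1, had 6.83, 6.85 and 7.17 in knockout cells, against 5.88, 6.52 and 6.39 in wild-type cells. The groups did not overlap, and the log2 fold change of 0.68 (SE 0.20) did not pass with all arrays (limma adjusted p = 0.13) or without wild-type replicate 1 (0.49, limma adjusted p = 0.0834). For BRCA2, which acts on resected ends, and PALB2, which joins BRCA2 to BRCA1, the log2 fold changes were 0.29 and 0.28. Both genes overlapped between the groups, and without wild-type replicate 1 the values were 0.074 for Brca2 and 0.17 for Palb2. For the exact permutation test over arrays, two-sided, 3 against 3 arrays allow no p below 0.1, which was the value for Brca1, Bard1 and Brip1. Every knockout value was the higher in 43.9% of the brightest class, which holds Bard1. In the middle class, which holds Brca1 and Brip1, the share was 12.6%.

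The promoters of these genes were read from RefSeq (GRCm38.p6), which gave a window of 250 bases before to 50 after the transcription start for 29 of the 36 genes. Fancd2, Usp1, Rad50, Nbn, Exo1, Wrn and Rad51d had no window and were not searched. The windows were searched on both strands for the core of the binding sequence of E2F factors in 4 forms. These forms were TTCCCGC on its own, then TTCGCGC as a second form, also TTGGCGC as another, and finally TTGCCGC. E2F factors are known to activate many genes of DNA synthesis and repair as cells enter S phase. Examples with a match and 1 without are shown to let the sites be seen, the last being that of Xrcc3, a recombination gene, with the matches in capitals. The windows lie at chr11:101551906-101552205, minus strand, for Brca1, at chr1:71102923-71103222, minus strand, for Bard1, at chr11:86201144-86201443, minus strand, for Brip1, at chr7:80534949-80535248, minus strand, for Blm, and at chr12:111813830-111814129, minus strand, for Xrcc3.
Brca1: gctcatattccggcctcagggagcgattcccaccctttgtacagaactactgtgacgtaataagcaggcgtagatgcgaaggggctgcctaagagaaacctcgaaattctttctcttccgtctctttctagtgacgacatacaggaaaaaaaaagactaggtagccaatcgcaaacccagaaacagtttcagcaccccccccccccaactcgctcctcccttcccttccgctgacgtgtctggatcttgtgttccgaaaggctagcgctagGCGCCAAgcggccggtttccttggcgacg
Bard1: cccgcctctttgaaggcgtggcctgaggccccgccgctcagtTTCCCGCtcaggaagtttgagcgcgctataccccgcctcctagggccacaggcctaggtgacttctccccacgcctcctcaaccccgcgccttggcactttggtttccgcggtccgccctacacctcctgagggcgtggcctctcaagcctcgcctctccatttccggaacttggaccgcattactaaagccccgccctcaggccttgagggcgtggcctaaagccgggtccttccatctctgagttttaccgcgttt
Brip1: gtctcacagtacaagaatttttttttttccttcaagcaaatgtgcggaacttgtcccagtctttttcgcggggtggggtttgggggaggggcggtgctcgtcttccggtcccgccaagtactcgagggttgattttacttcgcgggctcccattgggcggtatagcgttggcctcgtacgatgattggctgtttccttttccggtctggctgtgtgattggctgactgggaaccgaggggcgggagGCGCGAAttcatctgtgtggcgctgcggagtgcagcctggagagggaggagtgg
Blm: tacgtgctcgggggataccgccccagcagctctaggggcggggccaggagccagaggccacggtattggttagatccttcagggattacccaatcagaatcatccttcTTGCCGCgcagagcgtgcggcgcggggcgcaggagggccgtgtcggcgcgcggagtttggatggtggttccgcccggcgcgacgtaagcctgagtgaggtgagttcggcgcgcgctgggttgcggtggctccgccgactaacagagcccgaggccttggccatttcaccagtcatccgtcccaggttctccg
Xrcc3: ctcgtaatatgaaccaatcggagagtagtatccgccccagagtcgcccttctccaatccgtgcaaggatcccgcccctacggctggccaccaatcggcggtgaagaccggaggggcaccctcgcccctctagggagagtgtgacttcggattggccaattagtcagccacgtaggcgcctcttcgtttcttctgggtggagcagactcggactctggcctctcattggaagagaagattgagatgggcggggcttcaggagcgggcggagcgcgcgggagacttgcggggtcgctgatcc

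An E2F core was present in 16 of the 29 genes (55.2%), against 14.7% of the 15563 array genes with a window and 9.57% of all 32851 windows. The 16 genes were Fancb, Fancf, Fancg, Fancm, Ube2t, Fanci, Brca1, Bard1, Brca2, Brip1, Rad51c, Rad52, Blm, Atm, Chek1 and Chek2. A CCAAT box (CCAAT) was present in 18 of 29 (62.1%), against 41.7% of array genes, and in Ube2t and Fancf it overlapped an E2F core. The CHR core (TTTGAA), an element of mitotic genes, was in Bard1, Rad51b and Eme1 (10.3%, against 17.3%), and the NF-κB consensus was in Atr alone (3.45%, against 11.0%). Base composition was not matched in these shares. The median log2 fold change was 0.37 for the genes with an E2F core and 0.28 for those without, and 0.26 and 0.020 without wild-type replicate 1. The sets overlapped, as Eme1 had no E2F core while Atm, Chek1 and Rad51c had one, and these letters do not show that a factor binds.

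The pair of proteins that receive ubiquitin had unequal values. Fancd2 had 6.68, 6.66 and 6.78 in knockout cells, against 5.93, 6.22 and 6.11 in wild-type cells, again without overlap. Its log2 fold change was 0.62 (SE 0.14, limma adjusted p = 0.0821), or 1.54-fold. Without wild-type replicate 1 Fancd2 rose by 0.54 (SE 0.10, limma adjusted p = 0.0371, within 0.0162 to 0.356 over 14 alternatives). Fanci, its partner, also had every knockout value above every wild-type value, with a log2 fold change of 0.40 that did not pass (limma adjusted p = 0.195), nor did the 0.33 without wild-type replicate 1 (limma adjusted p = 0.182). Fancd2 and Fanci lie in the middle class, where in 12.6% of all genes every knockout value was the higher. Usp1, which encodes the enzyme that removes the ubiquitin, had 8.92, 9.04 and 9.07 in knockout cells, against 7.61, 9.09 and 8.53 in wild-type cells. The groups overlapped, and its log2 fold change of 0.60 was 0.20 without wild-type replicate 1.

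The 8 measured core genes and Ube2t had log2 fold changes from 0.017 to 0.56, and none passed with or without wild-type replicate 1. Fancm, the gene of the DNA translocase that anchors the complex, had the highest at 0.56 (95% interval 0.03 to 1.09), and Ube2t followed at 0.51. Without wild-type replicate 1 these were 0.38 for Fancm and 0.33 for Ube2t. Fanca, a scaffold subunit, had 0.42, and 0.41 without wild-type replicate 1. Ube2t and Fanca had no overlap between the groups, and both lie in the brightest class, where 43.9% of all genes had every knockout value higher. Fance, which binds FANCD2, had 7.64, 7.54 and 7.64 in knockout cells, against 7.28, 7.57 and 7.61 in wild-type cells. Fancl, the gene of the ubiquitin ligase subunit, had 7.31, 7.56 and 7.57 in knockout cells, against 7.30, 7.54 and 7.54 in wild-type cells. Fancc, another subunit, had 6.16, 6.08 and 5.94 in knockout cells, against 5.81, 6.33 and 5.99 in wild-type cells. These 3 genes overlapped between the groups, with log2 fold changes of 0.12 for Fance, 0.018 for Fancl and 0.017 for Fancc. The sign of Fancl and Fancc turned without wild-type replicate 1 (-0.064 and -0.10), where Fance had 0.020, and that of Fance and Fancl with quantile and cyclic loess normalization. Fancb, Fancf and Fancg had 0.25, 0.13 and 0.21, also with overlap, and leaving out wild-type replicate 1 gave 0.19, 0.075 and 0.058.

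Mediators of recombination had log2 fold changes nearer to 0. Rad51b, Rad51c, Rad51d and Xrcc3 had log2 fold changes of 0.28, 0.076, 0.19 and 0.026, and all 4 were below 0 without wild-type replicate 1 (-0.016, -0.23, -0.0039 and -0.082). Xrcc3 had 7.78, 7.85 and 7.91 in knockout cells, against 7.60, 7.89 and 7.97 in wild-type cells, and the 95% interval of its log2 fold change ran from -0.31 to 0.36. Rad54l, the gene of the motor protein that drives strand exchange, had 8.34, 8.15 and 8.34 in knockout cells, against 7.82, 8.34 and 7.81 in wild-type cells, a log2 fold change of 0.29, and 0.21 without wild-type replicate 1. Wild-type replicate 2 lay at the level of the knockouts. Rad52, whose product anneals complementary strands, had 0.072, and 0.016 without wild-type replicate 1. All 6 of these genes overlapped between the groups, and in 3 of the 5 BRCA genes every knockout value was the higher, as in 19.2% of all genes. The log2 fold change was above 0 in 6 of the 6, but in 2 without wild-type replicate 1, in 2 with cyclic loess and in 4 with quantile normalization.

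These role groups were also followed array by array. Relative to the average of all 6 arrays, the 5 genes of BRCA proteins and partners had means of 0.23, 0.20 and 0.39 in knockout cells, against -0.53, -0.14 and -0.14 in wild-type cells. The 6 mediator genes had 0.040, 0.068 and 0.13 in knockout cells, against -0.43, 0.20 and -0.0086 in wild-type cells. Wild-type replicate 1 was the lowest array in both. The other wild-type arrays lay below every knockout array in the BRCA group, while in the mediator group wild-type replicate 2 was the highest array of all. The groups hold few genes, and the difference was not tested.

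**Figure D2:**
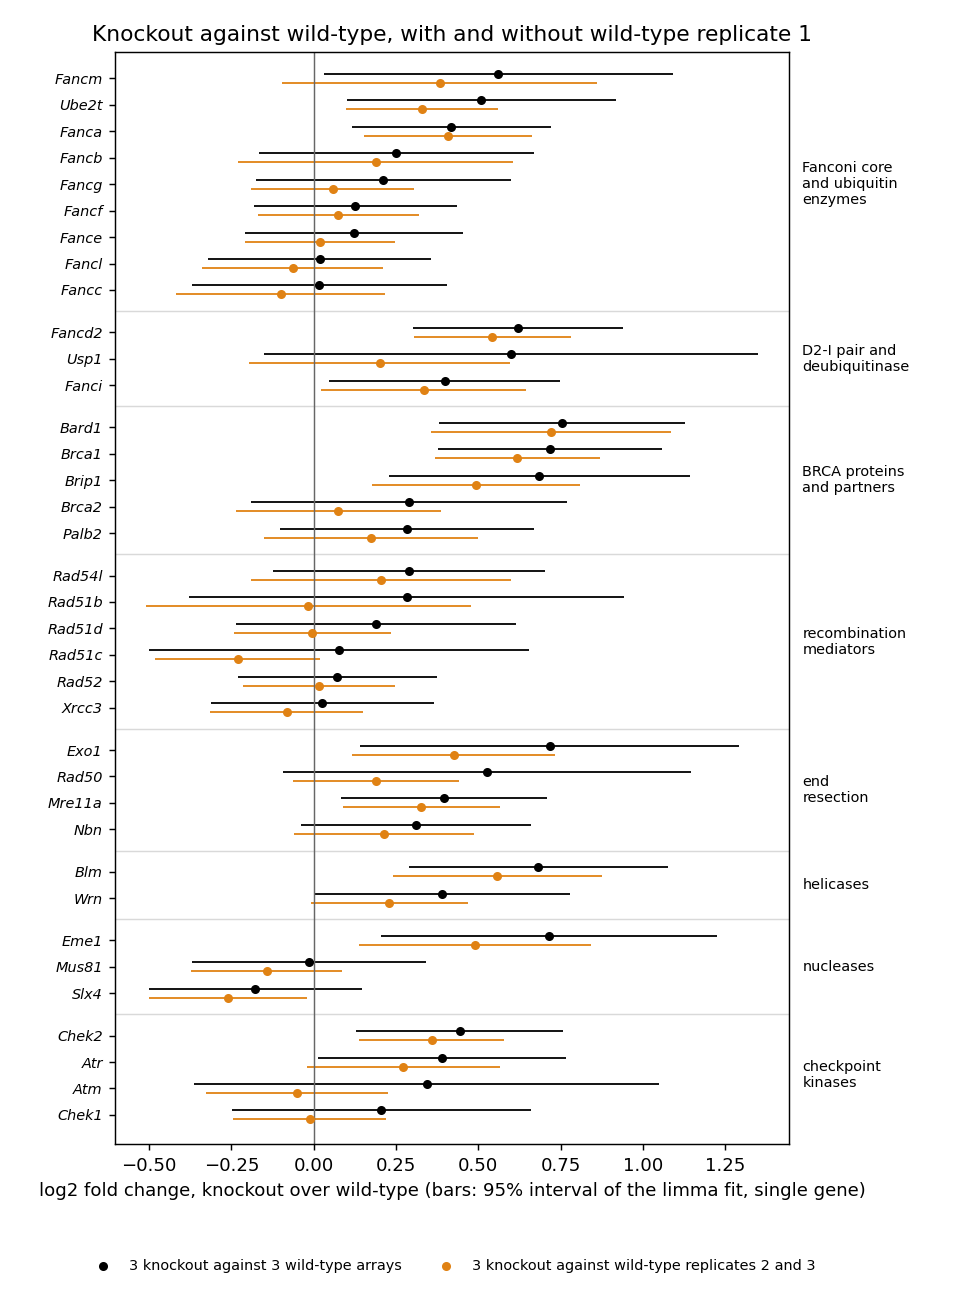
Log2 fold changes, knockout over wild-type, of the 36 repair genes with their 95% intervals from limma, unadjusted. Black shows all 6 arrays and orange the comparison without wild-type replicate 1, in which all 36 values were lower. Without that array Bard1, Brca1, Blm and Fancd2 had values above 0.5, and 10 genes had values below 0.

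End resection and unwinding were represented by 6 measured genes, none of which passed. In all 6 every knockout value was the higher, and all 6 lie in the brightest class, where 43.9% of all genes did the same. Exo1, the gene of an exonuclease that extends resection, had 7.99, 7.96 and 8.11 in knockout cells, against 6.72, 7.77 and 7.42 in wild-type cells, a log2 fold change of 0.72 (SE 0.25, limma adjusted p = 0.17). It was 0.42 when that first wild-type array was left out. Rad50, of the MRE11 complex that senses broken ends, had 8.80, 8.89 and 8.996 in knockout cells, against 7.69, 8.75 and 8.66 in wild-type cells. Its log2 fold change of 0.53 (limma adjusted p = 0.281) was 0.19 without wild-type replicate 1. The other genes of the complex, Mre11a and Nbn, had 0.40 and 0.31, and 0.33 and 0.21 without wild-type replicate 1. A second, dimmer row of Nbn had a difference of 0.18, and in it the groups overlapped. Its values were 6.17, 5.83 and 5.82 in knockout cells, against 5.20, 6.03 and 6.03 in wild-type cells. Blm, the gene of the helicase that dissolves recombination intermediates, had 0.68 (SE 0.17, limma adjusted p = 0.0997), and 0.56 without wild-type replicate 1. Wrn, a related helicase gene, had 8.84, 8.71 and 8.82 in knockout cells, against 8.08, 8.60 and 8.52 in wild-type cells, a log2 fold change of 0.39, and 0.23 without wild-type replicate 1.

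The nuclease genes had values on both sides of 0. Eme1, which encodes the partner of the MUS81 nuclease, had 6.85, 6.67 and 7.15 in knockout cells, against 5.72, 6.43 and 6.37 in wild-type cells, a log2 fold change of 0.72 (SE 0.22, limma adjusted p = 0.142), and 0.49 without wild-type replicate 1. Mus81 itself had 6.42, 6.42 and 6.34 in knockout cells, against 6.15, 6.50 and 6.58 in wild-type cells, a log2 fold change of -0.014, and -0.14 without wild-type replicate 1. Slx4, the gene of the scaffold that gathers nucleases at crosslinks, had 7.27, 7.11 and 7.18 in knockout cells, against 7.20, 7.48 and 7.42 in wild-type cells. Its log2 fold change of -0.18 was the lowest of the 36, and -0.26 without wild-type replicate 1, where it did not pass either. Eme1 thus had no overlap between the groups, while its partner Mus81 overlapped with all arrays and had every knockout value below both other wild-type values once wild-type replicate 1 was left out. Eme1 lies in the middle class, where in 12.6% of all genes every knockout value was the higher. Without wild-type replicate 1, 21.5% of all genes lay wholly lower in knockout cells.

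Of the checkpoint kinases, Chek2, which ATM activates, had a log2 fold change of 0.44 with no overlap (limma adjusted p = 0.14), and 0.36 without wild-type replicate 1. Atr, the kinase gene of the replication stress response, had 0.39, also without overlap, and 0.27 without wild-type replicate 1. Chek2 and Atr lie in the brightest class, where in 43.9% of all genes every knockout value was the higher. Chek1, whose product ATR activates, had 7.82, 7.91 and 7.78 in knockout cells, against 7.20, 7.86 and 7.84 in wild-type cells. Its log2 fold change of 0.20, and that of 0.34 of Atm, turned to -0.012 and -0.051 without wild-type replicate 1. The other wild-type values of Chek1 lay within the knockout range, and of those of Atm 1 lay within it and 1 above it.

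Across the whole list, 34 of 36 genes had a log2 fold change above 0, where 45.9% of all genes did, and the median was 0.33 against -0.042 for all genes. In 16 of 36 every knockout value lay above every wild-type value, against 19.2% of all genes, and in 0 the reverse held, against 15.4%, while 34.6% of all genes had no overlap in either direction. With cyclic loess 27 and with quantile normalization 31 of the 36 were above 0, against 9732 and 10470 of all 19938 genes. Without wild-type replicate 1 the numbers were 26 of 36 above 0, against 45.3%, and a median of 0.19, against -0.029. There 16 genes lay wholly higher in knockout cells, and Rad51c, Slx4 and Mus81 lay wholly lower. Genes that do not overlap over 6 arrays cannot overlap over 5 of them, so this count of 16 could not have been smaller. The shares of all genes at this step were 21.1% higher and 21.5% lower.

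Fold changes followed signal in these arrays, so the genes were also set beside others of like signal. None of the 36 lay in the dimmest of the 3 classes, where the median log2 fold change of all genes was -0.22 and 11.2% were above 0. In the brightest class, of genes with a mean above 7.11 on the log2 scale, 23 repair genes had a median log2 fold change of 0.34, against 0.30 for all genes there, and in 11 of the 23 every knockout value lay above every wild-type value, against 43.9% of all genes there. In the middle class, from 5.13 to 7.11, 13 repair genes had a median of 0.28, against -0.089, and in 5 of the 13 every knockout value was the higher, against 12.6% of all genes there. Of the 23 bright repair genes 22 were above 0, against 86.7% of all genes of that class. Of the 13 in the middle class 12 were, against 39.7%. Without wild-type replicate 1 the medians were 0.20 against 0.13 in the brightest class and 0.19 against -0.078 in the middle class. At that step 1 of the 23 bright repair genes passed as higher, against 7.52% of all genes there. In the middle class 2 of the 13 did, against 2.20%. Bright repair genes thus lay near the median of all bright genes, and those of the middle class above the median of theirs. The part of the arrays' signal range in these values was not tested.

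**Figure D3:**
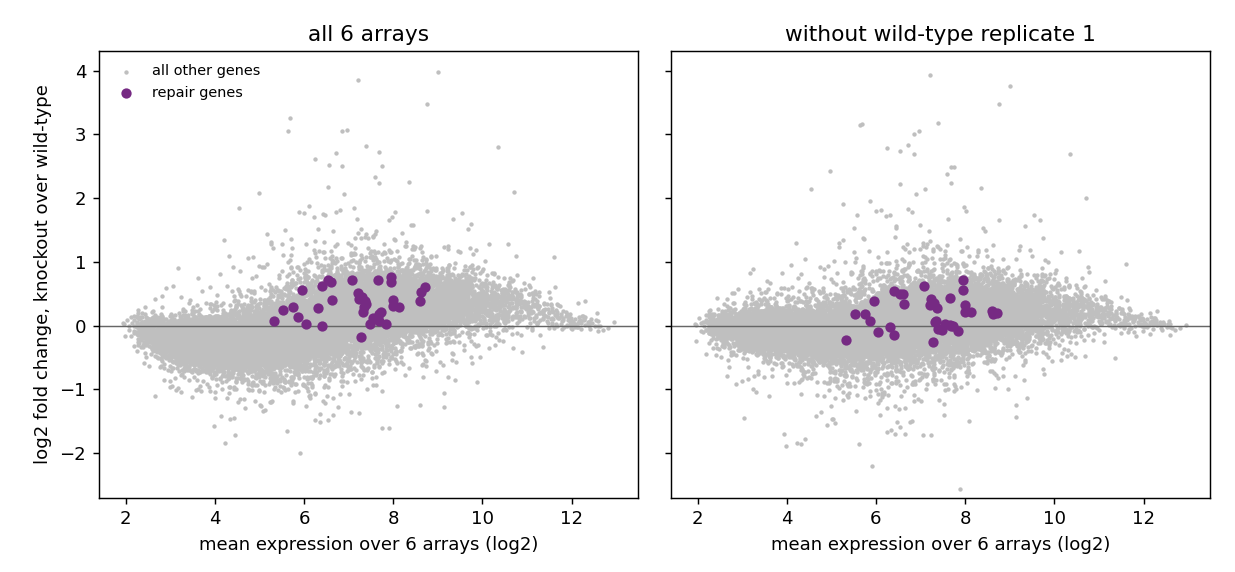
Log2 fold change, knockout over wild-type, against mean log2 expression for all 19938 genes in grey and the 36 repair genes in purple, with all 6 arrays on the left and without wild-type replicate 1 on the right. The grey cloud rises with expression more steeply on the left, and the repair genes lie in its middle part, with no gene in the dimmest class.

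Other genes of these pathways were measured too. Of 43 measured genes of recombination and crosslink repair outside the list, 1 rose, 0 fell and 42 did not pass with all arrays. The gene that rose was Swi5, which encodes an accessory factor of recombination, with 9.81, 9.55 and 9.65 in knockout cells, against 8.69, 8.87 and 8.73 in wild-type cells, a log2 fold change of 0.91 (SE 0.14, limma adjusted p = 0.0359). Of 16 genes of checkpoint and damage signalling none passed with all arrays. The smallest p-values were those of Cdc25c, Tipin and Rad17, with log2 fold changes of 0.95, 0.72 and 0.78. Without wild-type replicate 1 Cdc25c and Tipin rose (limma adjusted p = 0.0276 and 0.0283), and with the replicate block Cdc25c did (limma adjusted p = 0.0298). Of 13 end joining genes, the pathway that joins breaks without a template, none passed with or without wild-type replicate 1. The smallest p-values there were those of Aplf, Rif1 and Lig4, with log2 fold changes of 0.37, 0.53 and 0.32. Over these 72 genes the median log2 fold change was 0.33, and 0.18 without wild-type replicate 1, when 4 rose and 0 fell. By list the median was 0.34 for recombination, 0.38 for signalling and 0.20 for end joining. For all genes it was -0.042, and -0.029 without wild-type replicate 1, and 0.687% and 3.28% rose. The median signal of the 72 genes lay in the brightest class. There the median log2 fold change of all genes was 0.30, and 0.13 without wild-type replicate 1, when 7.52% rose.

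Some proliferation genes rose as well. Of 29 measured, 5 rose (Bub1, Aurkb, Birc5, Ccnb2 and Rrm2), 0 fell and 24 did not pass, and without wild-type replicate 1 the count was 11. Over all genes 0.687% rose, and 3.28% without wild-type replicate 1, when 7.52% of the brightest class rose. Rrm2, a ribonucleotide reductase subunit gene, had 9.13, 9.13 and 9.25 in knockout cells, against 7.81, 8.41 and 8.21 in wild-type cells, 1.03 higher on the log2 scale (limma adjusted p = 0.0476). The log2 fold changes of the kinase genes Bub1 and Aurkb, of Birc5, which acts with Aurkb at mitosis, and of the cyclin gene Ccnb2 were 1.15, 0.90, 0.88 and 0.88. The median log2 fold change of the list was 0.62, and 0.47 without wild-type replicate 1. Its array means were 0.30, 0.28 and 0.39 in knockout cells, against -0.59, -0.069 and -0.31 in wild-type cells, while those of the 36 repair genes were 0.13, 0.15 and 0.24 in knockout cells, against -0.48, 0.045 and -0.085 in wild-type cells. The part of proliferation in the repair gene values was not tested.

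**Figure D4:**
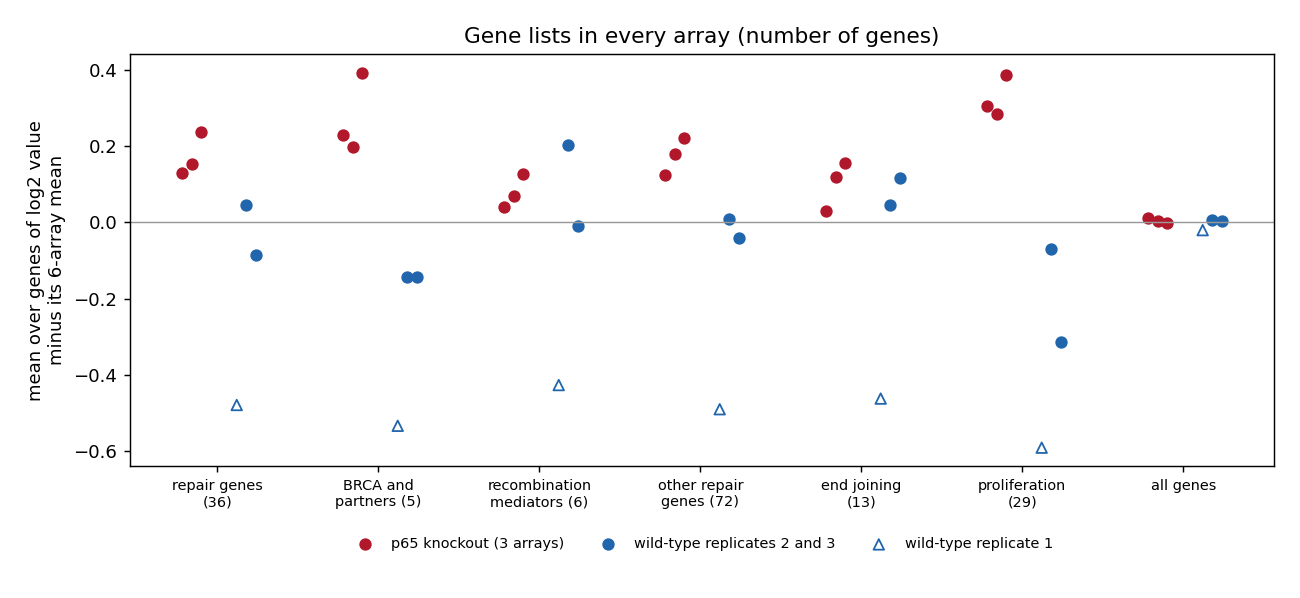
Mean over the genes of each list of the log2 value minus its average over the 6 arrays, for every array. Knockout points lie above all wild-type points for the 36 repair genes, the BRCA group, the other repair genes and proliferation, while wild-type replicate 2 in the mediator group and wild-type replicates 2 and 3 in the end joining group lie among or above them.

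Markers of other cell stages also differed between the groups. Of 8 myeloid progenitor markers 7 rose and 1, Cebpa, did not pass, and their summed linear signal was 14345 to 16529 in knockout cells, against 3514 to 4313 in wild-type cells. Of 9 stem cell markers 1 fell (Hlf) and 8 did not pass, with sums of 1501 to 1963 in knockout cells, against 2218 to 3355 in wild-type cells. The sums of the repair genes were 6883 to 7374 in knockout cells, against 4385 to 6443 in wild-type cells. The sum over all genes was also higher in every knockout array, with 4085545 to 4147030, against 3056783 to 3779733 in wild-type cells. None of the 8 markers of mature granulocytes and macrophages, the 7 of lymphoid cells, the 3 of erythroid cells or the 3 of megakaryocytes passed with all arrays. Without wild-type replicate 1 the myeloid progenitor count was 8 and the stem cell count 5, and 1 lymphoid marker, Cd3d, and Kit fell. Lymphoid sums were 610 to 831 in knockout cells, against 509 to 806 in wild-type cells, and mature myeloid sums 509 to 620 in knockout cells, against 442 to 694 in wild-type cells. Cd79b, with a mean of 8.72 the brightest of the 7 lymphoid markers, weighs most in the lymphoid sums. Of the 7, 2 (Cd3d and Cd3e) had every knockout value below every wild-type value, as in 15.4% of all genes, and 5 overlapped. Erythroid sums were 412 to 676 in knockout cells, against 429 to 470 in wild-type cells, and megakaryocyte sums 2650 to 3640 in knockout cells, against 2289 to 2970 in wild-type cells. Members of these 2 lists differed in sign. The log2 fold changes were 0.54 for Klf1, 0.25 for Epor and -0.53 for Alas2. They were 0.37 for Pf4, which weighs most in the megakaryocyte sums with a mean of 10.9, 0.033 for Itga2b and -0.18 for Gp9. No marker is at 0 on this scale. Of the genes of the sort, Kit averaged 10.1 in knockout and 10.4 in wild-type cells and Flt3, which encodes Flk2, 7.67 in knockout and 7.61 in wild-type cells. The part of this shift in stage markers in the repair gene values was not tested.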

How the data were processed

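Per the labels' protocols, sorted cells were lysed directly, and column-purified RNA was amplified by a whole-transcriptome kit and biotin-labelled. The authors deposited log2 values in 1 table. RMA, Partek and Affymetrix Expression Console appear, with no versions, per the submitters' processing notes. The series' own text gives an exon array, whereas the probe annotation supplied for the table belongs to a gene-level array of the same maker, so the design scanned is not settled here. The number of arrays limits the precision.

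Of 35557 rows, 21789 had 1 symbol, 1621 several and 12147 none listed. For 19938 genes, limma 3.58.1 under R 4.3.3 was fitted with group as the only term, with Benjamini-Hochberg adjustment over all genes at 0.05, after being tested on simulated data. Members and lists were chosen with earlier results of these data known. Values in all arrays were given for repair genes past the threshold with all arrays, with the replicate block or without wild-type replicate 1, for the 5 highest and 5 lowest log2 fold changes and for the highest mean of each role. Of other lists, genes past the threshold or, failing any, the 3 with the smallest p were named. Cell stage markers and Rela were checked as well. Alternatives were the block, quantile, cyclic loess and median-centred scaling, a filter on dim genes, an intensity trend, array weights, row means and leaving out each array.

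Same-numbered arrays deviated together (r of deviations from group means 0.368, 0.119 and 0.162, each above the pairing minimum of 0.1), though differently numbered arrays also reached 0.195 and 0.183. The labels do not say what a number marks.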

Additional observations from a re-analysis of the deposited data

How the results depend on the processing

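None of the 36 repair genes fell past the threshold under any of the 14 alternatives. The number that rose, 0 with all arrays, was 1 with the replicate block (Bard1), 1 with cyclic loess (Fancd2), 3 without the dimmest class of genes, where fewer genes are tested (Bard1, Brca1 and Fancd2), and 5 with array weights (those and Blm and Fanca). Leaving out single arrays gave 0 to 3, with 3 when the first wild-type array was the one left out. The median of the 36 genes ran from 0.19 to 0.46 when single arrays were left out and was 0.22 with cyclic loess, 0.29 with quantile normalization and 0.47 with arrays centred on their medians. The median of all genes was -0.0070 with cyclic loess, 0.016 with quantile normalization and 0.10 with centring. Other repair genes that rose, 1 with all arrays, numbered 2 with the replicate block, 0 with quantile normalization, 4 without the dimmest class and 9 with array weights, and 0 to 4 with single arrays left out. Over all genes 137 rose and 26 fell. The numbers were 282 and 90 with the replicate block, 424 and 81 without the dimmest class and 1117 and 482 with array weights. Quantile normalization gave 86 higher, cyclic loess 70 lower and centring 6 lower. Leaving out single arrays gave 21 to 653 higher and 0 to 276 lower. The cause of these differences was not tested.

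Signs turned for some genes, whose log2 fold changes with all arrays ran from -0.014 (Mus81) to 0.34 (Atm). With quantile normalization the log2 values were -0.020 for Fance, -0.12 for Fancl, -0.16 for Xrcc3, -0.099 for Rad52 and 0.071 for Mus81. With cyclic loess they were -0.099 for Fance, -0.19 for Fancl, -0.053 for Rad51d, -0.24 for Xrcc3, -0.17 for Rad52, -0.0058 for Rad54l and -0.044 for Chek1. With array weights they were -0.056 for Fancc, -0.036 for Fancl, -0.17 for Rad51c and -0.070 for Xrcc3, and with centring 0.13 for Mus81. Leaving out single arrays gave ranges of -0.10 to 0.16 for Fancc, -0.064 to 0.10 for Fancl, -0.016 to 0.59 for Rad51b, -0.23 to 0.25 for Rad51c, -0.0039 to 0.30 for Rad51d, -0.082 to 0.098 for Xrcc3, -0.14 to 0.070 for Mus81, -0.051 to 0.60 for Atm and -0.012 to 0.32 for Chek1. The block changed no call of a single repair gene other than Bard1. Depth has no counterpart in these arrays, and 0 of the 36 genes lay in the dimmest class.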
